A study of Homo sapiens with 4 samples.

Results

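Transcripts of 76 mitochondrial ribosomal protein genes were followed across 4 arrays, 48 genes with a large subunit symbol (MRPL and a number) and 28 with a small subunit symbol (MRPS and a number). Every probe was taken whose gene symbol began with MRPL or MRPS followed by a number, without antisense RNAs and pseudogenes. This gave 110 probes, 73 for the large and 37 for the small subunit, of 47227 probes on both chips, and 76 of 20044 named genes. Of the members, 49 had 1 probe and 27 had at least 2, with at most 4.

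The cultures carried the label HT-29, an epithelial cell line from a human colorectal adenocarcinoma, and were treated with an inhibitor of Hedgehog signalling or a control. Cyclopamine, a plant steroidal alkaloid that blocks the membrane protein Smoothened, was given at 20 µM and was on chip 1 with a control. GANT61, a small molecule that blocks the GLI transcription factors at the end of that pathway, was given at 20 µM and was on chip 2 with a control. All 4 cultures were harvested at 48 h, and each condition had 1 array. The labels of the chip 1 control disagree, since the source name gives Tomatidine and the title and treatment give DMSO, so it is called the chip 1 control here. The chip 2 control is labelled DMSO throughout. A difference between 1 array and 1 array has no replicate check, so no p-value or standard error is given, and precision is limited by the number of arrays.

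Mitochondria translate their own few messenger RNAs, which encode core subunits of the oxidative phosphorylation complexes, on a ribosome of their own. Its RNAs come from the mitochondrial genome, whereas all of its proteins are encoded in the nucleus, made in the cytosol and imported. Many of these proteins have a counterpart in the bacterial ribosome, and others are found only in mitochondria. The large subunit joins amino acids and the small subunit decodes the message. Dividing cells have to build new mitochondrial ribosomes, and the genes are broadly expressed, including in the colon epithelium.

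Levels are given as normalised log2 intensity, and a difference is the log2 ratio of a treated array to the control of its chip. A probe was taken as above background where its deposited detection p was under 0.01. A gene was represented by its probe with the highest mean level, and it was tested in a comparison if it was above background on at least 1 of its arrays. Calls were made at 1.5-fold. Levels of different genes come from different probes and are not comparable with each other.

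The transcripts were measured well throughout. Of the 76 members, 75 were above background on all 4 arrays. The exception was MRPS14, which encodes a small subunit protein with a bacterial counterpart, at 5.74 in the chip 1 control and not well above background there. Of the 110 probes, 97 were above background on all 4 arrays and 6 on none. Across the series 7306 genes were above background on all 4 arrays, and 13453 to 17068 probes were above background per array.

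The libraries of the chips stood apart, and this touches every value set across them. Of 15 epithelial and colon markers, 3 were above background on each array of chip 1 and 12 on each array of chip 2. Their summed intensity was 2950 and 2800 on chip 1 against 38700 and 31500 on chip 2, and EPCAM, CDH1, KRT19, CDX2 and VIL1 were below background on both arrays of chip 1. Of 11 mesenchymal markers, 6 were above background on both chip 1 arrays and 3 on both chip 2 arrays, with summed intensities of 8300 and 7240 against 968 and 892. Of 7 leukocyte and endothelial markers, 1 and 2 were above background on the chips. Arrays of the same chip correlated over all probes at 0.982 and 0.983 (Pearson's r), and those of different chips at 0.873 to 0.877. The chip 1 cultures thus went against the epithelial label, and each compound is read only against its own chip's control. In cultures, fewer cells of a type and less RNA per cell cannot be told apart.

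With GANT61, transcripts for mitochondrial ribosomal proteins were mostly lower than in the chip 2 control, by a small amount, and 1 gene was far higher. The median log2 ratio was -0.28 over the 76 members, -0.32 for the large and -0.20 for the small subunit, against -0.01 over 10439 tested genes. The ratio was below 0 for 61 of 76 members (80.3%), against 51.0% of tested genes. At least 1.5-fold lower were 13 members (17.1%), where 9.29% of tested genes were called lower, and 1 member was higher, where 10.6% were. Among genes above background on all 4 arrays, which resemble the members in being well measured, 7.84% were lower and 10.8% higher. Under median scaling, which moved the median of all tested genes to -0.20, 23 members were lower and 1 higher, against 17.7% and 6.68% of tested genes.

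Markers of cell type also differed within chip 2, some by more than the members did. Of 12 epithelial and colon markers tested, 4 were at least 1.5-fold lower with GANT61 and 1 higher, with a median log2 ratio of -0.20. TFF3, a peptide of goblet cells, was at -1.50, the intestinal transcription factor CDX2 at -1.44 and the microvillus protein VIL1 at -1.08, whereas the keratins KRT20 and KRT19 were at 0.85 and 0.16. Of 3 mesenchymal markers tested, CCN2 was at -1.31, CCN1 at 0.63 and VIM at 0.10. The leukocyte markers CD14 and CD68 were at 0.20 and 0.06. The part of these cell type markers in the members' lower ratios was not tested.

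**Figure D1:**
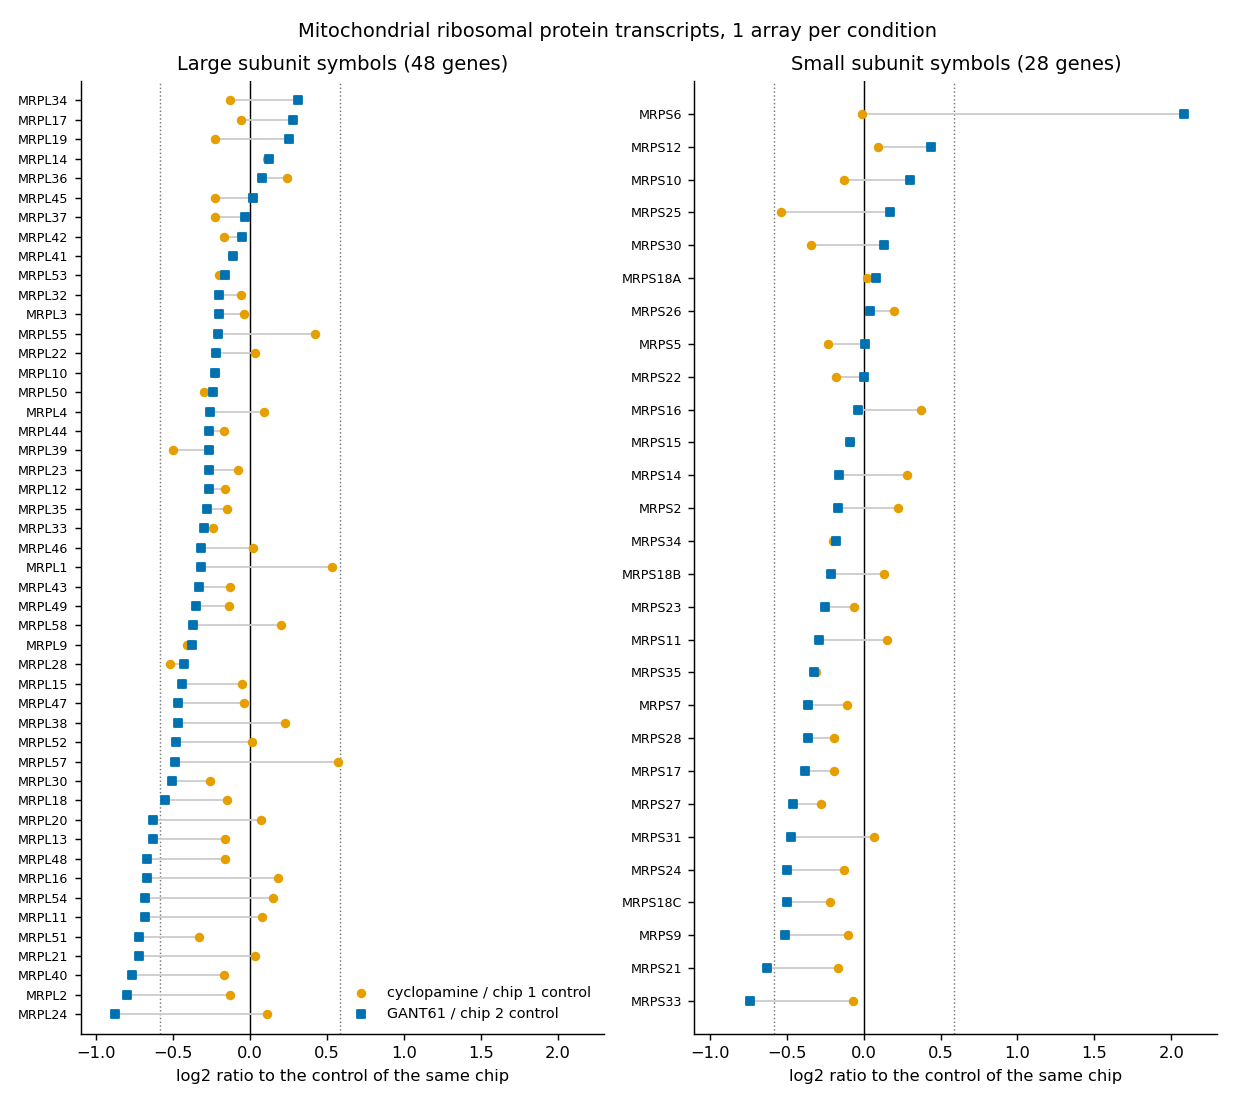
Log2 ratio of each of the 48 large subunit and 28 small subunit genes to the control of the same chip, with cyclopamine (circles) and GANT61 (squares), 1 array per condition and dotted lines at 1.5-fold. With GANT61 most squares lie left of 0, 13 of them beyond the left dotted line, whereas MRPS6 lies at 2.08, and no circle passes either dotted line.

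MRPS6 encodes the counterpart of bacterial protein S6, which sits on the small subunit's platform. Its level was 10.81 in the chip 1 control, 10.80 with cyclopamine, 10.79 in the chip 2 control and 12.87 with GANT61. It was alike on 3 arrays and high on the fourth, 4.22-fold above its control (log2 ratio 2.08). Measured with 1 probe, it ranked 57 of 10439 tested genes in that comparison and 31 of the 7306 genes above background on all 4 arrays. The next member was MRPS12 at 0.44, and no other reached 1.5-fold higher. The ratio of MRPS6 ran from 1.68 to 2.08 over 10 ways of processing. Among these, the detection filters could not change it, nor could the mean over probes, since the gene has 1 probe. Without MRPS6 the members' median was -0.29, and the SD of their log2 ratios was 0.29 in place of 0.40.

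MRPS6 shares its start site with SLC5A3, which encodes a transporter of myo-inositol. The 300-base promoter windows of the pair in RefSeq were identical, and MRPS6 was the only member whose window was that of another gene, where 193 genes in the table share one. SLC5A3 was looked at after the value of MRPS6 was seen. The level of its brighter probe was 5.74 in the chip 1 control, 5.40 with cyclopamine, 5.35 in the chip 2 control and 8.16 with GANT61. It was above background with GANT61 only, and was there at least 6.86-fold higher than its control, a bound because the control was not well above background. Its other probe was at least 1.13-fold higher. Whether both transcripts start at this site in these cells was not tested. The stretch from 150 bases before to 30 bases after the shared start (RefSeq, GRCh38.p14, chr21:34073428-34073607, plus strand) is shown because it belongs to the member with the highest ratio. Capitals here and in the sequences that follow would mark the motifs of ETS, NRF1, YY1 or NRF2 or an E-box, and this stretch has none.
MRPS6: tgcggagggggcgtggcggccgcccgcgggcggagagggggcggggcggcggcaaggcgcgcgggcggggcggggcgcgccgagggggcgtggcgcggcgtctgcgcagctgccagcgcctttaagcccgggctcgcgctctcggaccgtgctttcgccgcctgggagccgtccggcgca
Its window held 9 GC boxes and 82.0% G and C, against a median of 60.3% for members' windows and 62.7% for those of all genes.

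**Figure D2:**
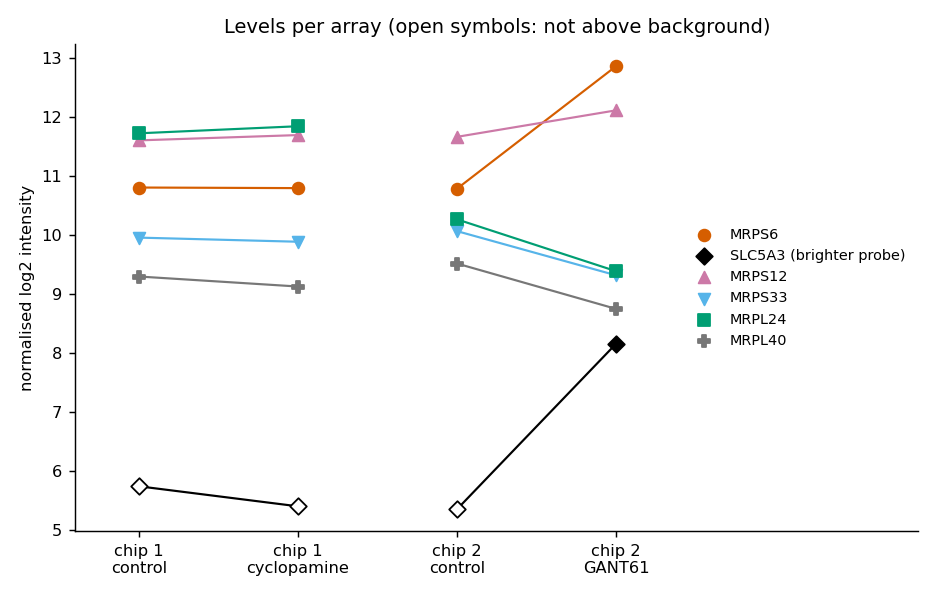
Normalised log2 intensity of MRPS6, SLC5A3, MRPS12, MRPS33, MRPL24 and MRPL40 on each of the 4 arrays, with lines joining a treated array to its control and open symbols for values not above background. MRPS6 and SLC5A3 were high with GANT61 only, at 12.87 and 8.16, whereas MRPL24, MRPS33 and MRPL40 were lower with GANT61 than in the chip 2 control.

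The 13 members that were lower with GANT61 were MRPL2, MRPL11, MRPL13, MRPL16, MRPL20, MRPL21, MRPL24, MRPL40, MRPL48, MRPL51, MRPL54, MRPS21 and MRPS33. They came from 11 of 48 large subunit genes (22.9%) and 2 of 28 small subunit genes (7.14%), where 9.29% of tested genes were lower. Their ratios ran from -0.88 to -0.63. Counterparts of bacterial proteins made up 7 of the large subunit genes, and proteins found only in mitochondria the other 4. None reached 2-fold lower, where 2.03% of tested genes did, and MRPS6 alone was at least 2-fold higher, where 3.5% did.

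MRPL24 had the lowest ratio of the members. It encodes the counterpart of bacterial protein L24, which binds early in the assembly of the large subunit. Its level was 11.73 in the chip 1 control, 11.85 with cyclopamine, 10.27 in the chip 2 control and 9.39 with GANT61. It was 1.85-fold lower with GANT61 (-0.88), and its other probe gave -0.75. With cyclopamine the ratio was 0.11, which turned to -0.20 under median scaling and -0.21 in the deposited series table.

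MRPL2 encodes the counterpart of the bacterial protein that lies beside the site of peptide bond formation. Its level was 8.90 in the chip 1 control, 8.77 with cyclopamine, 8.57 in the chip 2 control and 7.77 with GANT61, where it was 1.75-fold lower. MRPL16 encodes a protein that in bacteria helps to seat the incoming transfer RNA. Its level was 9.99, 10.17, 9.77 and 9.10 in the same order of arrays, 1.59-fold lower with GANT61. MRPL11 encodes the base of the stalk that recruits translation factors. Its level was 10.80, 10.89, 10.53 and 9.84, with a ratio of -0.68, and its other probes gave -0.73 and -0.29. In all 3 genes the level with GANT61 was the lowest of the 4 arrays.

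MRPL13, MRPL20 and MRPL21 encode further counterparts of bacterial large subunit proteins that bind ribosomal RNA. MRPL13 was at 10.78 in the chip 1 control, 10.62 with cyclopamine, 11.64 in the chip 2 control and 11.01 with GANT61, 1.54-fold lower than its control yet above both chip 1 arrays. MRPL20 was at 9.92, 9.99, 9.85 and 9.23 in that order, with a ratio of -0.63 and -0.52 from its other probe. MRPL21 was at 10.70, 10.73, 11.10 and 10.38, with a ratio of -0.72. The probes of MRPL21 disagreed about the call, since the other one gave -0.37.

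Of the large subunit proteins found only in mitochondria, MRPL40 was the lowest. Its level was 9.30 in the chip 1 control, 9.13 with cyclopamine, 9.52 in the chip 2 control and 8.75 with GANT61, 1.71-fold lower (-0.77). MRPL51 was lower in both comparisons, at 11.32, 10.99, 11.21 and 10.49, with ratios of -0.33 for cyclopamine and -0.72 for GANT61. MRPL48 was at 9.60, 9.44, 8.65 and 7.98, and MRPL54 at 10.17, 10.33, 9.40 and 8.73. Both of these were about as far below their chip 2 control, with ratios of -0.67 and -0.68, and both were lower in that control than on chip 1.

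In the small subunit the lowest member was MRPS33, a protein without a bacterial counterpart. Its level was 9.96 in the chip 1 control, 9.89 with cyclopamine, 10.07 in the chip 2 control and 9.32 with GANT61, 1.68-fold lower. Its probes gave -0.74 and -0.69. MRPS21, the counterpart of bacterial protein S21, was at 12.31, 12.14, 11.38 and 10.76, with a ratio of -0.63. Its other probe gave -0.15, so the call rested on 1 of its probes. Short of the threshold were MRPS9, the counterpart of bacterial protein S9, at -0.51 and MRPS18C at -0.50.

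Above 0 with GANT61 were 9 small subunit and 6 large subunit genes. MRPS12, the counterpart of the bacterial protein at the decoding centre, was at 11.61, 11.70, 11.67 and 12.12, with a ratio of 0.44 for GANT61. Its 3 probes above background with GANT61 gave 0.17 to 0.50, and its other probe was not above background there and gave a bound, at least 1.06-fold lower. MRPL34 (0.31), MRPS10 (0.30), MRPL17 (0.28) and MRPL19 (0.25), all counterparts of bacterial proteins, were above 0 under each scaling tried. MRPS25 at 0.17, MRPS30 at 0.13 and MRPL14 at 0.12 turned to -0.03, -0.04 and -0.04 under median scaling, so their direction was not settled.

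The spread between probes of 1 gene gave a technical yardstick within these arrays. For GANT61 the SD per probe was 0.14 over 21 members with several probes and 0.26 over 2343 genes. Of those 21 members, all probes had the same sign in 18, and in 17 they were all below 0. Probes of 1 gene share the array and the culture, so this says nothing of how cultures vary.

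Medians were below 0 in each structural class of the ribosome, although the calls came mostly from the large subunit. The median for GANT61 was -0.30 for 29 large subunit counterparts of bacterial proteins and -0.32 for 21 large subunit proteins found only in mitochondria. It was -0.23 for 16 small subunit counterparts and -0.23 for 10 small subunit proteins found only in mitochondria. In this grouping MRPS18A and MRPS30 were counted in the large subunit, where their proteins are found in spite of their names. MRPS18A was at 8.76, 8.78, 7.77 and 7.85 in the order of arrays used above, and MRPS30 at 11.22, 10.87, 10.16 and 10.29. Moving both genes gave medians of -0.31 for the large and -0.23 for the small subunit. MRPL12, the stalk protein that in bacteria calls in elongation factors, was at 10.64, 10.48, 9.38 and 9.10, a ratio of -0.27 for GANT61, near the members' median.

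With cyclopamine, the members lay close to the chip 1 control. The median log2 ratio was -0.13 for the large and -0.10 for the small subunit, against -0.01 over 8999 tested genes. None of the 76 was 1.5-fold higher or lower, where 9.8% of tested genes were called higher and 7.82% lower. Among genes above background on all 4 arrays, 7.02% were higher and 3.86% lower. The ratio was below 0 for 65.8% of members, against 51.0% of tested genes. The median absolute difference was 0.16 for the members and 0.22 for genes above background on all 4 arrays, whereas with GANT61 it was 0.32 against 0.28. Median scaling and the deposited series table, which moved the median of all tested genes to -0.25 and -0.19, put 8 and 4 members below the threshold. In those settings 17.0% and 8.73% of tested genes were called lower, and 5.0% and 2.27% higher. Few cell type markers could be tested on chip 1. MUC13, a mucin of epithelia, was at -1.26 with cyclopamine, and the keratins KRT18 and KRT8 at 0.29 and 0.16. Of 6 mesenchymal markers none passed 1.5-fold, with CCN2 at 0.28, CCN1 at 0.14, COL1A1 at -0.07 and SNAI2 at -0.37. CD68, from the list of leukocyte and endothelial markers, was at 1.75, and it was the only 1 of the 7 above background on chip 1. The part of these markers in the members' ratios was not tested.

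The member with the highest ratio for cyclopamine was MRPL57, a large subunit protein found only in mitochondria. Its level was 6.39 in the chip 1 control, 6.96 with cyclopamine, 8.26 in the chip 2 control and 7.78 with GANT61, a ratio of 0.57. Its other probe was not above background with cyclopamine and gave a bound in the other direction, at least 1.33-fold lower, so the ratio above 0 rested on 1 probe. MRPL1, which forms the stalk beside the exit site for spent transfer RNA, was at 6.87, 7.40, 8.36 and 8.03. Its ratio of 0.53 stayed above 0 under each scaling, as did those of MRPL55 (0.42) and MRPS16 (0.37). MRPL36 (0.24), MRPS2 (0.22), MRPS26 (0.20) and MRPS11 (0.15) were below 0 both under median scaling and in the series table.

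The lowest ratios for cyclopamine were those of MRPS25 and MRPL28. MRPS25, a small subunit protein found only in mitochondria, was at 7.46 in the chip 1 control, 6.92 with cyclopamine, 6.67 in the chip 2 control and 6.84 with GANT61, a ratio of -0.54 for cyclopamine. MRPL28, the counterpart of bacterial protein L28, was at 7.84, 7.32, 7.40 and 6.97, with ratios of -0.52 and -0.43 for the compounds. MRPL39, which resembles a transfer RNA synthetase, was at 9.70, 9.20, 8.95 and 8.68. These 3 genes were below their control with cyclopamine, and of them MRPL28 and MRPL39 were also below it with GANT61.

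Other low members with cyclopamine were MRPL9 (-0.41), MRPL51 (-0.33), MRPS30 (-0.34), MRPS35 (-0.31) and MRPS27 (-0.28). MRPS5, a counterpart of a bacterial protein, was at -0.23, and MRPL38, found only in mitochondria, at 0.23, no more than the shift of all genes under median scaling. MRPS27 encodes a pentatricopeptide repeat protein, a class that binds RNA, and its other probe gave -0.34. MRPL35 had probes at -0.15 and -0.57, and its other probe, not above background with cyclopamine, was at least 1.53-fold lower. For MRPS14 the ratio is a bound, at least 1.14-fold higher than the chip 1 control. The SD per probe was 0.14 over 21 members, and all probes agreed in sign in 15 of these, against 18 for GANT61.

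The compounds were given at the same dose and time but against different controls and in cultures that differed in cell type markers, so no direct difference between them was tested. Below 0 in both comparisons were 40 of 76 members (52.6%), against 27.9% of the genes above background on all 4 arrays. A further 21 were above 0 with cyclopamine and below it with GANT61, 10 the other way round and 5 above 0 in both. The members' shares below 0 in the single comparisons, 65.8% and 80.3%, already give a joint share of this size where ratios are unrelated. Gene by gene the ratios were unrelated, with Pearson's r of -0.01 and Spearman's rho of -0.03 over the 76 members, and r of -0.05 and rho of -0.04 without MRPS6. Over 7306 genes r was 0.23 and rho 0.21. These are descriptions across genes on the same 4 arrays, and genes are not independent replicates. The ratios of most members for cyclopamine were also no larger than the scaling shifts given above.

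**Figure D3:**
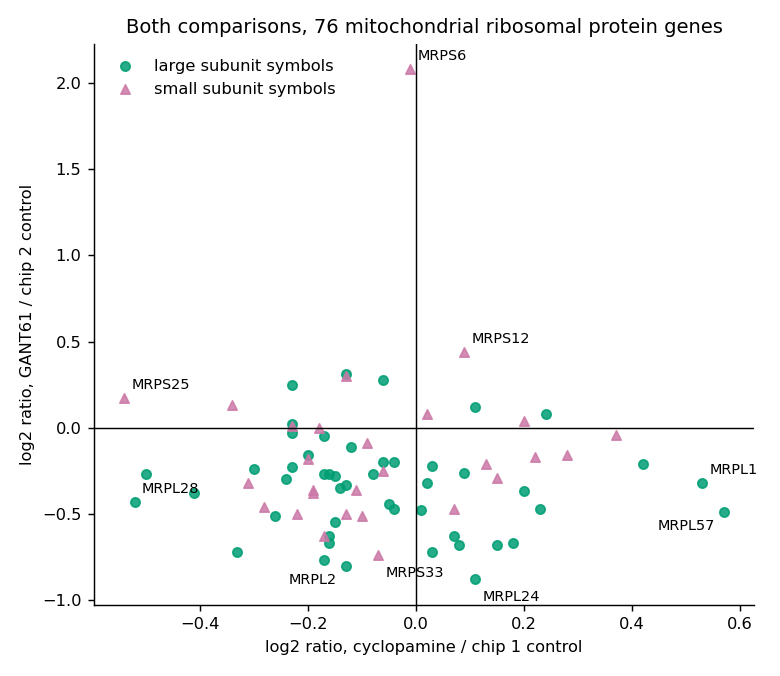
Log2 ratio with cyclopamine (horizontal axis) and with GANT61 (vertical axis), each to the control of its chip, for 76 mitochondrial ribosomal protein genes, with 1 array per condition. The lower left field holds 40 genes and the lower right 21, MRPS6 stands alone at the top, and the points show no slope.

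Partners of the ribosome were compared by lists of genes that act in the same pathway. Their counts are to be read against all tested genes, of which 10.6% were higher and 9.29% lower with GANT61, and 9.8% higher and 7.82% lower with cyclopamine. With GANT61 the median log2 ratio was -0.08 for 16 mitochondrial translation factors. Past 1.5-fold, 2 of them were above their control and 1 below it. PDF, the deformylase of new mitochondrial proteins, was at 0.69 and MTRF1L, a release factor, at 0.59. TUFM, the elongation factor that delivers transfer RNA, was at -0.70 with GANT61 and -0.37 with cyclopamine, and the RNA-binding protein SLIRP at -0.54 with GANT61. The factors with the highest ratio for cyclopamine were MTRES1 at 0.35 and MTRFR at 0.32, and GFM1, the translocase, was at -0.37.

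Proteins that assemble the ribosome or modify its RNA had a median of -0.15 over 30 tested genes for GANT61, with 0 higher and 1 lower. The lower gene was METTL15, a methyltransferase of the small subunit RNA, at -0.62, and NSUN4, which acts in joining the subunits, was the highest at 0.53. The protease SPG7 was at 0.37 and the RNA-binding protein FASTKD2 at -0.49. For cyclopamine their median was 0.01 over 28, with the helicase DDX28 at 0.43 and MPV17L2 at -0.63. LYRM4, an iron-sulfur cluster factor that was in the list though not itself an assembly protein of the ribosome, was the highest at 0.64. TRMT2B was at least 1.2-fold lower, a bound. Mitochondrial transfer RNA synthetases had medians of -0.07 for cyclopamine, with none past the threshold, and -0.20 over 18 for GANT61, with 1 higher and 2 lower. CARS2 was at 0.65, FARS2 at -0.72 and NARS2 at -0.64 with GANT61. These are the enzymes that load cysteine, phenylalanine and asparagine. AARS2, for alanine, was at 0.04. With cyclopamine NARS2 was at 0.17 and FARS2 at 0.16, and EARS2 and YARS2, for glutamate and tyrosine, were at -0.30 and -0.29.

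Genes of mitochondrial transcription and RNA processing had medians of 0.01 and -0.07 over 20 tested genes. PNPT1, an RNA exonuclease, was at 0.90 with cyclopamine, and SUPV3L1, the helicase that works with it, at 0.64 with GANT61. TFAM, which packs the mitochondrial genome and starts its transcription, was at -0.30 and -0.41. TWNK, the helicase of mitochondrial DNA replication, was at 0.57 with cyclopamine and PRORP, which trims the front end of transfer RNAs, at -0.36. ELAC2, which trims the back end, was at -0.41 with GANT61 and FASTKD5 at 0.38. Of 10 regulators of nuclear genes for mitochondria, 8 were tested for cyclopamine, with a median of -0.05, and 7 for GANT61, with a median of 0.20. Median scaling, which moved the median of all tested genes to -0.20 with GANT61, was not run for this list. That shift is as large as the list's median, so its direction was not settled. With GANT61, 6 of these 7 regulators were above 0 and 1 (14.3%) below, where 51.0% of tested genes and 80.3% of members were below. At least 1.5-fold higher were 2 (28.6%), where 10.6% of tested genes were, and 0 were lower, where 9.29% were. With cyclopamine 1 was higher and 0 lower. MYC was at 0.15 with cyclopamine and 0.64 with GANT61, and the coactivator PPRC1 at 0.76 and 0.59. GABPA, the ETS factor known as a regulator of mitochondrial ribosomal protein genes, was at least 1.21-fold lower with cyclopamine and at -0.31 with GANT61. The coactivator PPARGC1A was at -0.33 with cyclopamine and the nuclear receptor ESRRA at 0.05 with GANT61.

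Of the proteins in or attached to the mitochondrial ribosome that carry other symbols, 3 were tested. DAP3, a GTP-binding small subunit protein, was at 0.03 with cyclopamine and 0.09 with GANT61. CHCHD1 was at -0.08 and -0.38. OXA1L, a partner of the ribosome that inserts the new proteins into the inner membrane, was at -0.18 and -0.11. None of the 3 passed 1.5-fold in either comparison.

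With GANT61 the lists of oxidative phosphorylation subunits and cytosolic ribosomal proteins also had medians below 0. So did the partner lists above except the regulators, with the transfer RNA synthetases at -0.20. Oxidative phosphorylation subunits had a median of -0.39 over 69 tested genes, with 18 (26.1%) at least 1.5-fold lower, where 9.29% of tested genes were, and 0 higher. For cyclopamine their median was -0.26 over 70, with 4 (5.71%) lower, where 7.82% of tested genes were, and 1 higher. NDUFC1 and NDUFB3, subunits of complex I, were at -0.86 and -0.84 with GANT61, and the highest were SDHC of complex II at 0.18 and NDUFS8 at 0.15. With cyclopamine UQCR11 of complex III was at 0.74 and NDUFV3 at 0.24. ATP5MC3 and NDUFB1 were counted among the 4 lower genes by their ratios, -1.14 and -0.95. Both are bounds, at least 1.12-fold and 1.19-fold lower, so their calls at 1.5-fold were not settled. Cytosolic ribosomal proteins had a median of -0.21 over 68 tested genes for GANT61, with 11 (16.2%) lower against the same 9.29%, and -0.03 for cyclopamine. For cyclopamine the oxidative phosphorylation median thus lay further below 0 than that of the members, and for GANT61 the members lay between the other two lists.

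**Figure D4:**
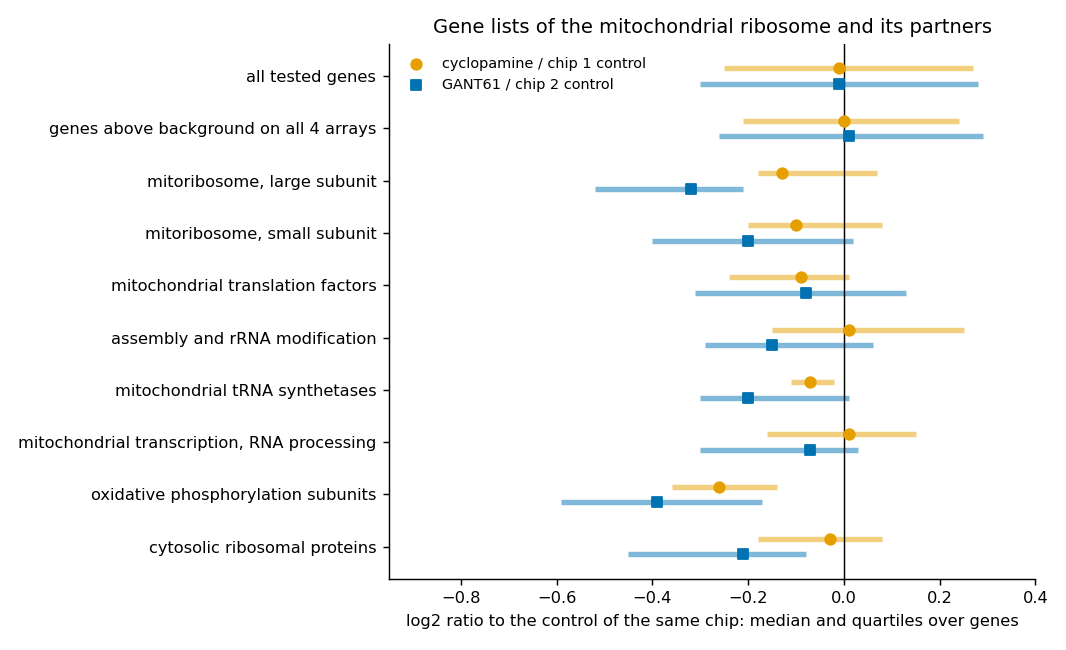
Median (symbol) and quartiles (bar) of the log2 ratio to the control of the same chip over the genes of each list, for cyclopamine (circles) and GANT61 (squares), with 1 array per condition. The large subunit median with GANT61 was -0.32, between that of oxidative phosphorylation subunits at -0.39 and that of cytosolic ribosomal proteins at -0.21.

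Promoter windows in RefSeq (GRCh38.p14), from 250 bases before to 50 after the start, were found for 68 of the 76 members and for 15842 genes in all. Each was searched on both strands for 6 motifs. The ETS motif CCGGAAG was in 28 members (41.2%) against 14.2% of all windows, and the YY1 motif AANATGGCG in 18 (26.5%) against 4.81%. The NRF1 motif, GCGCA and GCGC around any base, was in 8 (11.8%) against 8.57%. The NRF2 motif TGACNNNGC was in 8 (11.8%) against 14.3%, the E-box CACGTG in 6 (8.82%) against 8.88%, and the GC box GGGCGG in 42 (61.8%) against 58.5%. Matches of different motifs could overlap by a few letters and were counted for each, and a match is a description of letters, not a site bound in these cells. For GANT61 the median log2 ratio was -0.45 for the 28 members with the ETS motif and -0.23 for the other members with a window. For cyclopamine the medians were -0.06 and -0.12. For GANT61 the medians with and without the other motifs were -0.12 and -0.28 (E-box), -0.22 and -0.30 (YY1) and -0.26 and -0.30 (GC box). They were -0.24 and -0.27 for NRF1 and -0.30 and -0.27 for NRF2. Of the 6 motifs, ETS thus had the widest gap for GANT61, but not between the controls. There the medians were 0.50 and 0.78 for ETS, 0.22 and 0.68 for NRF1 and 0.53 and 0.86 for the GC box. The part of any motif in the ratios was not tested.

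Stretches of 150 bases before to 30 after the start are shown for 4 members that were lower with GANT61 and for the highest members of each subunit besides MRPS6, chosen after their values were seen. Coordinates are those of GRCh38.p14, and capitals mark ETS or NRF2 motifs. MRPL24 (chr1:156741059-156741238, minus strand) and MRPL40 (chr22:19432395-19432574, plus strand) were the lowest large subunit genes with a window, the former without a marked motif. MRPS33 (chr7:141014923-141015102, minus strand) and MRPS21 (chr1:150293711-150293890, plus strand) were the 2 lower small subunit genes.
MRPL24: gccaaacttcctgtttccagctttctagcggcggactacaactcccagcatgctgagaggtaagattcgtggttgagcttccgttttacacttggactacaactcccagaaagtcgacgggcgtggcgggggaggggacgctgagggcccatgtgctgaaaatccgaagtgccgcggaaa
MRPL40: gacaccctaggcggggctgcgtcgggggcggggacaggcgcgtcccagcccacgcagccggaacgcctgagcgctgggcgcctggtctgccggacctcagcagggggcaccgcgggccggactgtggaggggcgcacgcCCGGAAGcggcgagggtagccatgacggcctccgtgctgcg
MRPS33: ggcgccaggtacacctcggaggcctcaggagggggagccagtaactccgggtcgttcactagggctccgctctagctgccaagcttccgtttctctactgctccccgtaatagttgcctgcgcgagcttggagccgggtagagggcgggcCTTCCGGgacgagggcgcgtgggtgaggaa
MRPS21: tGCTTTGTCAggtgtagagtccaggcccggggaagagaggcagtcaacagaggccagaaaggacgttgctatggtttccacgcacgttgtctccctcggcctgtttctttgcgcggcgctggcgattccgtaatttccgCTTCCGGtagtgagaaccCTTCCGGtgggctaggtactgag
MRPL34 (chr19:17292423-17292602, plus strand) carries an NRF2 motif and MRPS12 (chr19:38930794-38930973, plus strand) an ETS motif, and neither was lower with GANT61.
MRPL34: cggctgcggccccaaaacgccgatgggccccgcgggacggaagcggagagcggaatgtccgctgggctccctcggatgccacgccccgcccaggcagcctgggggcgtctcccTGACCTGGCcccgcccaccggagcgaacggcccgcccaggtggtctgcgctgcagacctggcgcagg
MRPS12: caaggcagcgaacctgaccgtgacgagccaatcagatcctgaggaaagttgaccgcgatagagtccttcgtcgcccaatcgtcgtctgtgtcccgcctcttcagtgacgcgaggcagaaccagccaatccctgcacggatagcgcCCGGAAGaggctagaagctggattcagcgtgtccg
The ETS motif thus stood near the start both of members that were called lower, MRPL40, MRPS33 and MRPS21, and of MRPS12, which passed the threshold in neither direction. The NRF2 motif likewise stood in the stretch of MRPS21, which was called lower, and in that of MRPL34, which was not. The RefSeq table has several windows for MRPS33, MRPL34 and MRPS12, of which 1 is shown.

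The controls differed far more than either compound did from its control, and the members were mostly higher in the chip 1 control. The median log2 ratio, chip 1 control to chip 2 control, was 0.58 for the large and 0.71 for the small subunit, against -0.11 over 10905 tested genes. At least 1.5-fold higher on chip 1 were 42 members (55.3%), where 29.4% of tested genes were, and 6 (7.89%) were lower, where 34.3% were. The ratio was below 0 for 19.7% of members, against 53.5% of tested genes. Under median scaling, which moved the median of all tested genes to -0.48, 30 members were higher and 8 lower, against 20.3% and 46.3% of tested genes. Chip, culture and the control's own treatment cannot be told apart here. The epithelial markers given above also differed between the controls, but the other way. All 12 tested were below 0, with 9 of them bounds. Cytosolic ribosomal proteins had a median of -0.08 in the same comparison and oxidative phosphorylation subunits 0.39.

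MRPL34, the counterpart of a small bacterial large subunit protein, had the highest ratio between the controls. Its level was 11.16 in the chip 1 control, 11.02 with cyclopamine, 8.85 in the chip 2 control and 9.16 with GANT61, 4.94-fold between the controls. MRPS28, a small subunit protein, was at 9.96, 9.76, 7.79 and 7.43, or 4.49-fold. MRPS24, the counterpart of bacterial protein S3 at the entry for messenger RNA, was at 12.48, 12.35, 10.82 and 10.32, or 3.14-fold. In these 3 genes both chip 1 arrays were above both chip 2 arrays. MRPL24 (1.46), MRPL41 (1.44) and MRPS18B (1.44) followed, and the other probe of MRPS18B gave 2.48.

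Lower on chip 1 were MRPL57, MRPL1, MRPS35, MRPL13 and MRPS31 among others. MRPL57 was at -1.87, though its other probe gave 0.01, so the difference rested on 1 probe. MRPL1 was at -1.49 and MRPL13 at -0.86. MRPS35, a small subunit protein found only in mitochondria, was at 9.12, 8.81, 10.32 and 10.00, 2.29-fold lower. MRPS31 was at -0.71 and MRPS16 at -0.29. The paralogs MRPS18A, MRPS18B and MRPS18C had ratios of 0.99, 1.44 and 0.67 between the controls, MRPL12 of 1.26 and MRPS30 of 1.06. MRPS6, by contrast, was nearly level between the controls, at 0.02. The spread between probes of 1 gene was wider here than for either compound. The SD per probe was 0.38 over 22 members with several probes and 0.55 over 1835 genes. All probes agreed in sign in 17 of the 22, and the widest range was 1.88, in MRPL57.

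**Figure D5:**
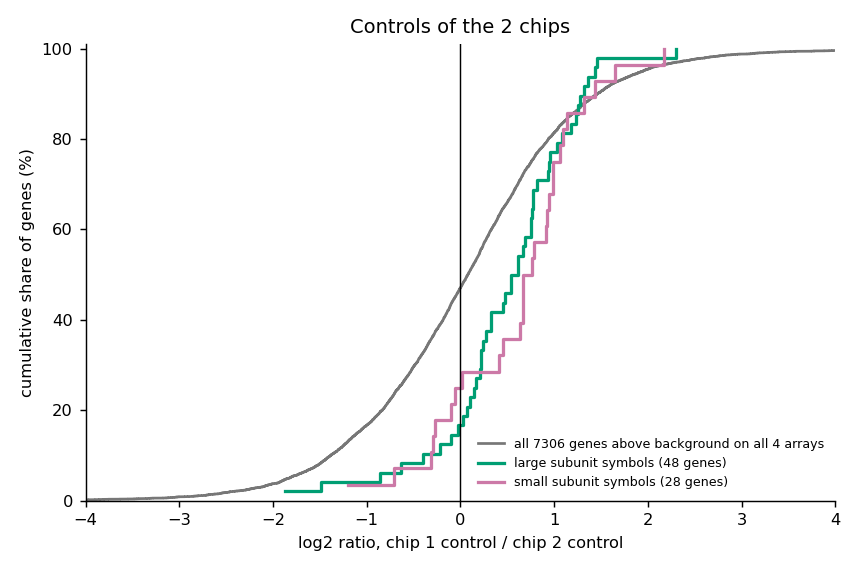
Cumulative share of genes (vertical axis, %) against the log2 ratio of the chip 1 control to the chip 2 control (horizontal axis), 1 array each, for 48 large subunit genes, 28 small subunit genes and the 7306 genes above background on all 4 arrays. Both member curves lie right of the grey curve up to about 1, with medians of 0.58 and 0.71 against 0.08.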

How the data were processed

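Total RNA of 4 cultures was amplified, labelled with biotin and hybridised to Illumina HumanHT-12 V4 beadchips, per the labels' protocols. Per the file headers, the deposited tables hold a probe intensity and a detection p-value for each array, with no normalization. The authors' deposited series table holds log2 values, which equalled log2 of those intensities within 5e-09. For the scanner software, settings and version were not given in the sources used here.

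Intensities of 47227 probes were background-corrected and quantile-normalised over the 4 arrays with neqc in limma 3.58.1 (R 4.3.3, offset 16), with negative controls inferred from the detection p-values. Lists and counts were computed in Python 3.11.15 with numpy 2.4.6 and pandas 2.3.3, and both steps were tested on simulated data. Plots were drawn with matplotlib 3.10.9. Of the probes, 30111 had 1 gene symbol in the platform annotation, 8 had several and 17108 none. Symbols were updated by gene identifier for 30072 probes. A gene above background on 1 array only is given as a bound, the fold over the lowest signal well above background, and written as at least that fold. Counts past a threshold used the log2 ratio for such genes too.

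Each group has 1 array, so differences have no test. Median intensity per array was 72.8 to 91.1. Members and lists were chosen with earlier results of these data known. Named were all members past 1.5-fold for a compound, the 4 highest and 4 lowest of each subunit per compound, the 3 highest and 3 lowest between the controls, MRPL12, MRPS18A, MRPS18B, MRPS18C and MRPS30, and the 2 highest and 2 lowest of each other list (fewer where fewer were tested). MRPL35, SLC5A3 and the markers EPCAM, CDH1 and VIL1 fall outside this rule and were named after their values were seen. Alternatives were no background correction, median scaling, neqc within each chip, an offset of 50, the series table, a detection p under 0.05, detection on both arrays or none, the mean over probes, every probe apart, platform symbols and another place for MRPS18A and MRPS30.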

Additional observations from a re-analysis of the deposited data

How the results depend on the processing

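The medians of both subunits relative to all tested genes kept their direction under every alternative run. They ran from -0.33 to -0.27 for the large and -0.22 to -0.17 for the small subunit with GANT61, from -0.21 to -0.09 and -0.19 to -0.07 with cyclopamine, and from 0.47 to 0.72 and 0.66 to 1.0 between the controls. A median or ratio was taken to stay if it shifted by less than the SD per probe over all genes. That limit was 0.23 for cyclopamine, 0.26 for GANT61 and 0.55 between the controls. It exceeded both subunit medians for cyclopamine and the small subunit median for GANT61, so it is a wide one. A count was taken to stay if it changed by no more than 1.5-fold. Of the counts and medians recomputed, 129 stayed within their limits, 5 moved and 0 changed direction. The moved ones were counts of members at least 1.5-fold lower. With cyclopamine, 0 became 8 under median scaling, 4 in the series table, 1 with the mean over probes and 2 with every probe apart. With GANT61, 13 became 23 under median scaling, the same 13 among them. Over the other alternatives with 1 value per gene the GANT61 count was 9 to 14, and the mean over probes kept 9 of the 13. The detection filters could not change the ratio of a member, so part of the values of named members stayed by construction. Of these values, 1053 stayed and 91 moved, most of the latter cyclopamine ratios under median scaling and in the series table. In those settings all tested genes had medians of -0.25 and -0.19 for cyclopamine and -0.20 and -0.11 for GANT61. The cause was not tested. No paired analysis was possible because each group has 1 array and the groups share fewer than 2 replicate numbers, and no array could be left out for the same reason.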

Other observations

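Symbols close to those of the members gave few signals. The antisense RNA MRPL20-AS1, which the naming rule left out, was at a level of 9.30 in the chip 1 control, 9.65 with cyclopamine, 9.30 in the chip 2 control and 8.98 with GANT61. MRPL23-AS1 and 1 probe of the pseudogene MRPS31P5 were above background on no array. The other probe of MRPS31P5 (5.83 and 5.61) and the pseudogene MRPL42P5 (5.85 and 5.75) passed background on both arrays of chip 2 but on neither of chip 1. KGD4, a subunit of the 2-oxoglutarate dehydrogenase complex that was once counted as a mitochondrial ribosomal protein, was not above background on chip 1 and was at 6.38 in the chip 2 control and 5.80 with GANT61. Whether the probes of MRPL42 and MRPS31 also match transcripts of their pseudogenes was not tested.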
